A study of Mus musculus with 6 samples.

Results

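The Iroquois homeobox genes Irx1 to Irx6 were followed in whole mouse lungs collected at the embryonic stage E14.5. All 6 genes of the family were measured, each by the only array feature annotated with its symbol alone, out of 19946 genes compared. They were chosen by family membership and not by their values, and they were described within the 2 chromosomal clusters in which they lie, Irx1, Irx2 and Irx4 on chromosome 13 and Irx3, Irx5 and Irx6 on chromosome 8. The study compared 3 control lungs with 3 mutant lungs, 1 Affymetrix array each, to address the part that the forkhead factors Foxp1, Foxp2 and Foxp4 play in lung endoderm identity. Control embryos were Shh-Cre, with Cre recombinase driven from the Shh gene, which is active in lung endoderm and hence in the epithelium but not in the mesenchyme or vessels. Mutant embryos carried the same Cre and are taken here to have flox/flox alleles of Foxp1, Foxp2 and Foxp4. Their genotype label repeats Foxp1 in the place of Foxp2, which is taken here from the title of the series. The design text of the series calls the mutants DKO, a name that does not match 3 targeted genes. These descriptions could not be reconciled here. Controls and mutants were both on a mix of C57BL/6 and 129X1, and both carried Cre, so the groups differ in the floxed alleles and not in Cre. The lungs were not separated into epithelium and mesenchyme.

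Iroquois proteins are transcription factors with a homeodomain of the TALE class, which has extra residues in a loop between helices, and a short conserved motif named the Iro box. In vertebrates the genes lie in clusters that arose by duplication, and the first members of each cluster tend to be expressed together. In the mouse they are known for patterning of the neural tube, heart, limb and retina, and several are expressed in the branching lung epithelium.

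The genotype check was partial. Foxp2 read 10.52 to 10.54 in controls and 9.55 to 9.60 in mutants and fell (adjusted p = 4.75e-05), and Foxp4 read 9.37 to 9.43 and 8.56 to 8.96 and fell as well (adjusted p = 0.00591). Foxp1 read 9.68 to 9.75 and 9.25 to 9.55 and did not pass (adjusted p = 0.0661), except without mutant 3 (-0.37, adjusted p = 0.0428). Correlations between arrays over all genes were at least 0.998 within controls and 0.994 within mutants. Array medians lay between 6.70 and 6.79. Mutant 1 stood apart in heart muscle genes, as given with Irx4.

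Of the 6 Iroquois genes, 3 fell in the mutant lungs and 0 rose. Irx1 and Irx2 fell most, Irx5 fell by less, and Irx3, Irx4 and Irx6 did not pass the threshold of 0.05 on the adjusted p. Among all genes tested, 7.66% passed in either direction with 3.83% lower and 3.84% higher in mutants. The same 3 Iroquois genes had mutant values wholly outside the control values, as did 25.9% of all genes. The median log2 difference, mutant minus control, was -0.26 over the 6 genes and -0.0055 over all genes. The counts were 2 of 3 in the chromosome 13 cluster and 1 of 3 in the chromosome 8 cluster. Values are on the deposited log2 scale, and levels of different genes are not compared with each other, because each feature has its own probes. Where a level is set against the array medians, this only marks a dim feature. Part of a list of epithelial markers fell as well, and its values follow the Iroquois results. In bulk tissue, fewer cells of a type and less RNA per cell cannot be told apart.

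**Figure D1:**
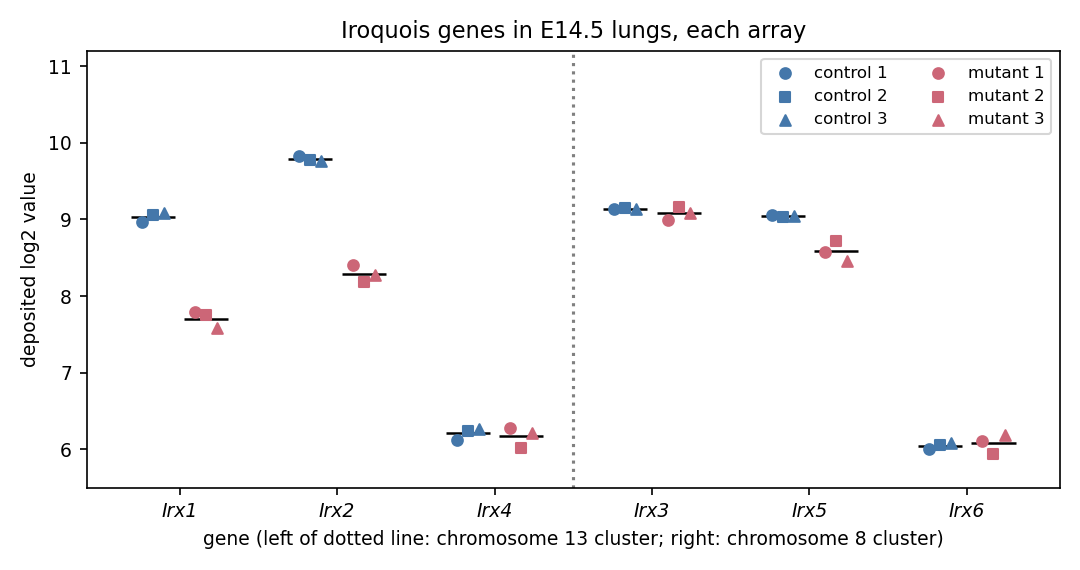
Deposited log2 values (vertical axis) of the 6 Iroquois genes in each of the 3 control and 3 mutant arrays, with bars at the group means. Irx1, Irx2 and Irx5 have all mutant points below all control points, while the groups overlap for Irx3, Irx4 and Irx6.

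Irx2, the middle gene of the chromosome 13 cluster, stood at 9.83, 9.78 and 9.76 across controls 1 to 3 and at 8.41, 8.19 and 8.28 across mutants 1 to 3. The controls lay within 0.06 of each other and the mutants within 0.22, and a gap of 1.36 separated the groups. The difference was -1.50 ± 0.07 (SE, n = 3 per group), a fold of 2.83, with a limma adjusted p of 1.98e-05 and a 95% interval from -1.66 to -1.34. It was the fall of rank 47 among all genes by size.

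Irx1, at the edge of the same cluster, stood at 8.97, 9.06 and 9.08 across controls 1 to 3 and at 7.79, 7.75 and 7.58 across mutants 1 to 3. Again each mutant lay far below each control, with a gap of 1.18. The difference was -1.33 ± 0.07 (SE, n = 3 per group), a fold of 2.51 (limma adjusted p = 4.75e-05, 95% interval -1.50 to -1.16), of rank 67 among the falls. Both genes belong to the 0.582% of genes that passed and were at least 2-fold lower in mutants.

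Irx4, the third gene of this cluster and best known as a factor of the heart ventricles, stood at 6.13, 6.24 and 6.27 across controls 1 to 3 and at 6.28, 6.02 and 6.22 across mutants 1 to 3. The groups overlapped, with means of 6.21 ± 0.08 (SD) and 6.17 ± 0.14. The difference was -0.04 ± 0.08 (SE, limma adjusted p = 0.865), with a 95% interval from -0.23 to 0.15. All values of Irx4 lay below the array medians, where differences can be compressed. Whether a fall of the size seen for Irx1 or Irx2 would show at this level was not tested. The highest mutant value of Irx4 was in mutant 1. On that array the median of the 16 heart muscle genes was 1.35 above their control means, against -0.26 and -0.20 in mutants 2 and 3. The median level of that list was 6.71 to 6.94 in controls and 8.05, 6.53 and 6.62 in mutants. Of its genes, ventricular Myl2 read 5.53 to 5.73 on all 6 arrays, below the array medians. Myh7 and Myl3 were higher in mutant 1 (7.30 and 6.15) than in mutant 2 (6.72 and 5.78) and mutant 3 (6.83 and 5.87). Other genes of the list stood out more in mutant 1, among them Tnnt2 and Myh6. They read 10.76 and 10.29 there, 7.68 and 6.98 in mutant 2, and 7.90 and 6.95 in mutant 3. Without mutant 1 the Irx4 difference was -0.09 (adjusted p = 0.589), and with the heart muscle median as a covariate it was -0.07 (adjusted p = 0.678).

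Irx5, which in the heart shapes the repolarization gradient and in the retina acts in bipolar cells, was the member of the chromosome 8 cluster that fell. It stood at 9.06, 9.03 and 9.05 across controls 1 to 3 and at 8.57, 8.72 and 8.46 across mutants 1 to 3. The controls were within 0.02 of each other and the highest mutant lay 0.31 below the lowest control. The difference was -0.46 ± 0.07 (SE, n = 3 per group), a fold of 1.38 (limma adjusted p = 0.00737, 95% interval -0.63 to -0.29). It passed with each array left out in turn, with adjusted p from 0.00215 to 0.0419.

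Irx3, which lies beside Irx5 and is known for neural tube patterning and the ventricular conduction system, stood at 9.13, 9.15 and 9.13 across controls 1 to 3 and at 8.99, 9.16 and 9.09 across mutants 1 to 3. Mutant 2 was above all controls, and the other two mutants were below them. The difference was -0.06 ± 0.06 (SE, limma adjusted p = 0.681), with a 95% interval from -0.20 to 0.08. The group means were 9.14 ± 0.01 (SD) and 9.08 ± 0.09, and the interval leaves out a fall as large as that of Irx5. The long non-coding RNA gene Irx3os, next to Irx3 and looked at after its values were seen, read 6.87 to 7.13 in controls and 6.90 to 7.05 in mutants (adjusted p = 0.918).

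Irx6, the last gene of the chromosome 8 cluster and also a factor of retinal bipolar cells, stood at 6.01, 6.06 and 6.08 across controls 1 to 3 and at 6.11, 5.94 and 6.19 across mutants 1 to 3. The mutant values lay on both sides of the controls. The difference was 0.03 ± 0.07 (SE, limma adjusted p = 0.902, 95% interval -0.14 to 0.20).

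**Figure D2:**
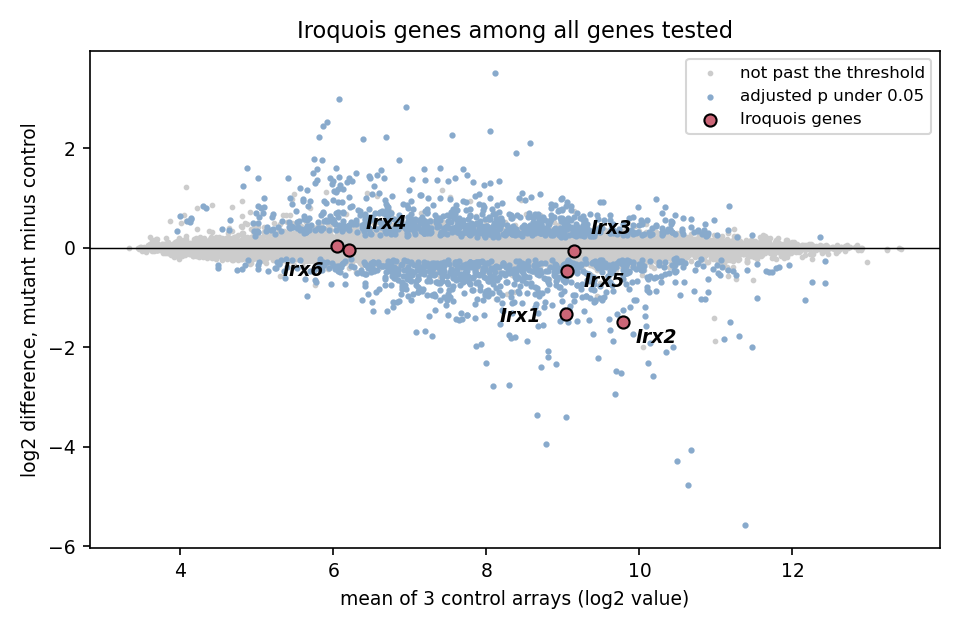
Log2 difference, mutant minus control (vertical axis), against the mean of the 3 control arrays (horizontal axis) for all 19946 genes, with the 6 Iroquois genes in red. Irx1 at -1.33 and Irx2 at -1.50 lie below most genes, Irx5 is at -0.46, and Irx3, Irx4 and Irx6 lie near 0.

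Within clusters, the changes of 6 gene pairs were compared by taking the difference between both genes on each array, so that the level of a feature cancels. Irx1 fell by 0.17 ± 0.10 (SE) log2 units less than Irx2 (exact two-sided permutation p = 0.2). Irx1 and Irx4 differed by -1.29 ± 0.11 in their change, and Irx2 and Irx4 by -1.46 ± 0.07. In the other cluster Irx3 and Irx5 differed by 0.40 ± 0.07, Irx5 and Irx6 by -0.49 ± 0.15, and Irx3 and Irx6 by -0.09 ± 0.11 (exact permutation p = 0.4 for the last). The 4 larger differences each had an exact permutation p = 0.1 (0.15 after Benjamini-Hochberg adjustment over the 6 pairs). A p of 0.1 is the smallest that 3 arrays against 3 can give. This design therefore cannot place any of the 6 pairs past 0.05, nor decide whether Irx1 and Irx2 changed by unequal amounts. In each cluster, the last gene of the chromosomal order, Irx4 or Irx6, was the one with the smallest difference in size. On chromosome 8 this rests on 0.03 for Irx6 against -0.06 for Irx3, neither past the threshold. Irx4 and Irx6 also lay below the array medians, where differences can be compressed, and a link to position was not tested.

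Promoter sequences were at hand for Irx2, which fell, and for Irx3 and Irx4, which did not pass. They are printed to show the start region of a gene that fell beside those of a member of its own cluster, Irx4, and a member of the other cluster, Irx3. Each is the 250 bases before a RefSeq transcript start of assembly GRCm38.p6, written 5′ to 3′ on the strand of the gene, with CpG dinucleotides in capitals. They lie at chr13:72628570-72628819 (+ strand) for Irx2, chr13:73260247-73260496 (+ strand) for Irx4 and chr8:91801655-91801904 (- strand) for Irx3.
Irx2: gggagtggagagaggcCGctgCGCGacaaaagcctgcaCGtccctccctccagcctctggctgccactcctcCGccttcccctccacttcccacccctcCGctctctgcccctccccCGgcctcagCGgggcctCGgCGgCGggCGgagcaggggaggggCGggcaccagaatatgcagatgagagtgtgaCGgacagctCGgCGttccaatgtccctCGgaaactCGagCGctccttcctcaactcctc
Irx4: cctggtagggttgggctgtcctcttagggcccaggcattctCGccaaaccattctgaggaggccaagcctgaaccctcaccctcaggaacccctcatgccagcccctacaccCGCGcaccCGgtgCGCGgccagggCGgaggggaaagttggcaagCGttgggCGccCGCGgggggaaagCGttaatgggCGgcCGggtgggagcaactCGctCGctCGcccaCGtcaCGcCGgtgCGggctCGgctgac
Irx3: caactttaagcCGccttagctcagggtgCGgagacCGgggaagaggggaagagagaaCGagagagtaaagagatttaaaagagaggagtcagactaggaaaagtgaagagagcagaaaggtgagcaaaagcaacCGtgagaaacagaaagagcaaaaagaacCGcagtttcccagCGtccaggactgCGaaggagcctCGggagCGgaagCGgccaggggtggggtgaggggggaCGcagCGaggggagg
The Irx2 sequence holds 19 CpG dinucleotides and 68.4% G or C, the Irx4 sequence 22 and 68.8%, and the Irx3 sequence 13 and 56.0%. Over 32851 RefSeq start regions of this length the medians were 6 and 52.4%. Core motifs of forkhead factors were searched on both strands. The motif TGTTTAC was in 0 of the 3 sequences and is in 3.17% of all such regions. A variant, TATTTAC, was likewise in 0 of them, against 2.73% of all regions. The third form searched, TGTTTGC, was also in 0, against 4.30%, and 9.73% of all regions hold at least 1 of these motifs. These letters are thus not in these windows, which says nothing about binding elsewhere. Irx1, Irx5 and Irx6 were not matched.

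The genes that flank the clusters were read as well, the 5 nearest protein-coding genes on each side. Around Irx1, Irx2 and Irx4, 1 of 9 measured neighbours fell and 1 rose, while 7 missed the threshold (median 0.00). Among all genes 3.83% passed as lower and 3.84% as higher, and counts of 1 in so few genes cannot be set apart from these shares. The one that fell was Lpcat1, an acyltransferase that makes surfactant phospholipid, which stood at 10.50, 10.46 and 10.46 across controls 1 to 3 and at 9.96, 9.99 and 10.07 across mutants 1 to 3. Its difference was -0.47 ± 0.06 (SE, limma adjusted p = 0.00194), and the groups did not overlap, as for 25.9% of all genes. Ube2ql1, a ubiquitin-conjugating enzyme gene at the outer end on the Irx1 side, rose by 0.57 ± 0.12 (adjusted p = 0.0281), and its call ended without control 2, control 3 or mutant 3 (adjusted p up to 0.112). Adamts16, directly beside Irx1, read 5.79 ± 0.03 (SD) and 5.83 ± 0.07, and Ndufs6, directly beside Irx4, 8.73 ± 0.06 and 8.71 ± 0.48. Neither passed (adjusted p 0.788 and 0.982).

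Around Irx3, Irx5 and Irx6, 0 of 10 neighbours fell, 1 rose and 9 did not pass (median 0.01). These counts, too, cannot be set apart from the shares of 3.83% lower and 3.84% higher among all genes. The one that passed was Rpgrip1l, a gene of the ciliary transition zone, at 0.21 ± 0.05 (limma adjusted p = 0.0496), and the call ended with each of the 6 arrays left out (adjusted p up to 0.178). Fto, an RNA demethylase gene directly beside Irx3, had a mean of 9.92 ± 0.06 (SD) among controls and 9.80 ± 0.17 among mutants (adjusted p = 0.528), and Mmp2, the matrix protease gene directly beside Irx6, 11.78 ± 0.04 and 11.88 ± 0.09 (adjusted p = 0.441).

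**Figure D3:**
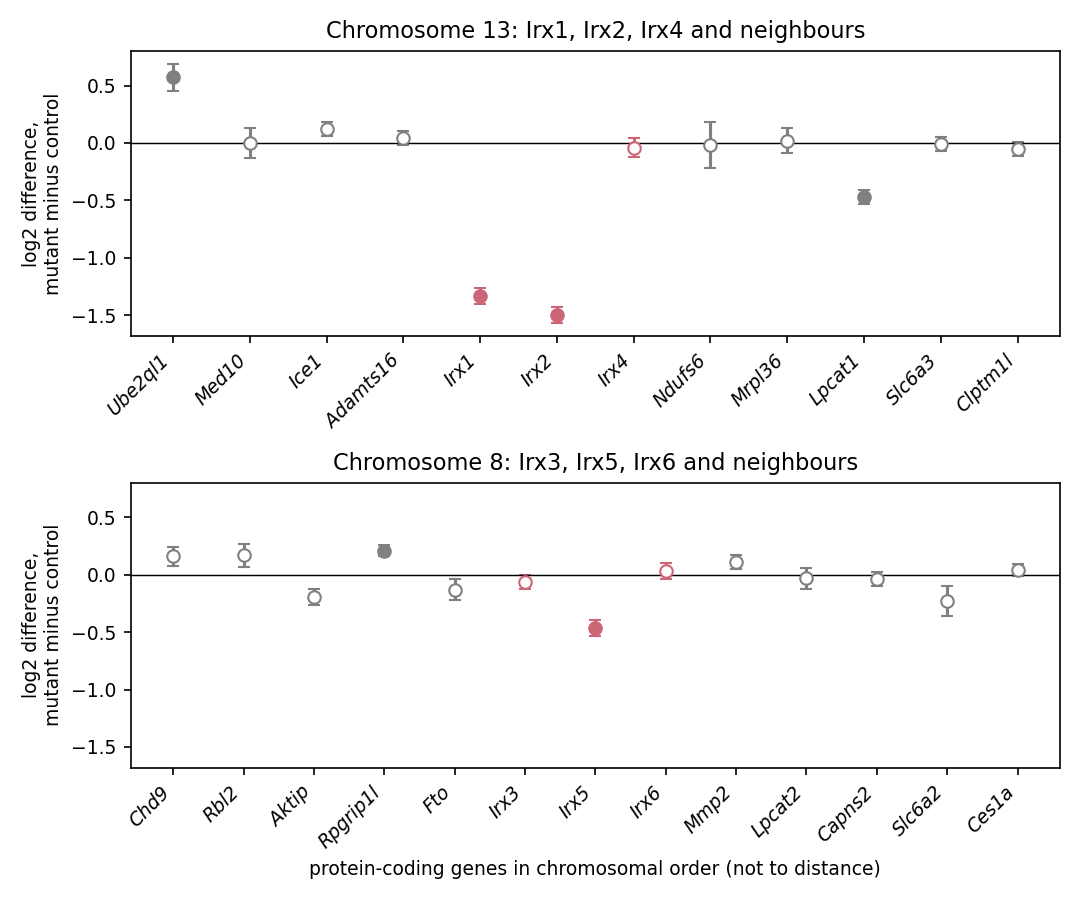
Log2 difference, mutant minus control, with its SE as bars, for the Iroquois genes (red) and their measured protein-coding neighbours (grey) in chromosomal order, not to distance, with filled points past the threshold. Irx1 and Irx2 stand at -1.33 and -1.50 between neighbours that lie between -0.47 and 0.57.

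Part of the epithelial marker list passed the threshold as lower in the mutants. Of 15 measured genes shared by most epithelia, 7 fell and 0 rose, while 8 missed the threshold. An unadjusted limma p under 0.05 was reached by 12 of the 15, each lower in mutants. Among all genes 3.83% passed the adjusted threshold as lower. The median difference was -0.37, in a range from -1.03 to 0.01. The largest fall in this list was that of the keratin Krt8 (-1.03 ± 0.13, SE, limma adjusted p = 0.00294), followed by the membrane protease Prss8 (-0.89 ± 0.12) and the tight junction gene Cldn3 (-0.75 ± 0.10). Of 2 defining adhesion genes, chosen after their values were seen, Epcam was at -0.33 ± 0.08 (adjusted p = 0.0384). With single arrays left out, Epcam passed only without mutant 3 (adjusted p = 0.0201) and reached 0.147 without control 1. Cdh1, which encodes E-cadherin, was at -0.19 ± 0.05 and did not pass (adjusted p = 0.0684). The differences of Irx1 and Irx2 were below those of all 15 markers, while 5 markers had a lower difference than Irx5 and 13 a lower one than Irx3. This is a description and was not tested as a difference. The count that fell was 3 without control 1 (Krt8, Prss8 and Cldn3), 3 without control 2 and 4 without control 3, and 6, 8 and 7 without mutants 1, 2 and 3. Irx1, Irx2 and Irx5 were the 3 lower Iroquois genes in each of these 6 fits.

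Set against their control means, these markers had medians of -0.60, -0.35 and -0.27 in mutant 1, mutant 2 and mutant 3. The corresponding Irx1 values were -1.25, -1.28 and -1.46, those of Irx2 -1.38, -1.60 and -1.51, and those of Irx5 -0.48, -0.33 and -0.58. Mutant 1 had the lowest epithelial median. Among the mutants, Irx1 (-1.25 against -1.28 in mutant 2) and Irx2 were highest there, while Irx5 was in the middle. With 3 mutant arrays such orders cannot be related to each other, and this was not tested. Of the mesenchymal markers, 1 of 12 fell (Foxf1) and 2 rose (Pdgfrb and Twist1, median of the list 0.02). Without control 3, 0 of these 3 passed, and without control 1 or control 2 only Twist1 did. Of 9 endothelial markers 0 passed by limma (median -0.06), with 1, Emcn, at an unadjusted p under 0.05, and Emcn passed as lower without mutant 2. In the heart muscle list 0 of 16 passed by limma, with 0 at an unadjusted p under 0.05, and 4 passed as lower without mutant 1. Of the remaining lists, 2 of 6 cartilage genes fell (Cnmd and Sox9) and 1 of 5 nerve and neural crest genes fell (Ret). In the mesothelial list 1 of 6 genes rose (Lrrn4), and in that of stratified epithelium 3 of 7 rose (Pax9, Dsc3 and Trp63). The 4 others of the last list did not pass (Krt5 0.37, Dsg3 0.01, Krt14 -0.19 and Krt15 -0.38). Krt15 passed as lower without mutant 1 and Krt5 as higher without mutant 2. Over all genes, 3.83% passed as lower and 3.84% as higher. The rises of Pax9 and Dsc3 did not pass without control 2 or without control 3, nor that of Lrrn4 without control 1 or without control 2. Trp63 passed only without control 2 (adjusted p = 0.0458) when single arrays were left out, with adjusted p up to 0.124 without control 3. The part that a different share of epithelial cells has in the Iroquois differences was not tested.

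**Figure D4:**
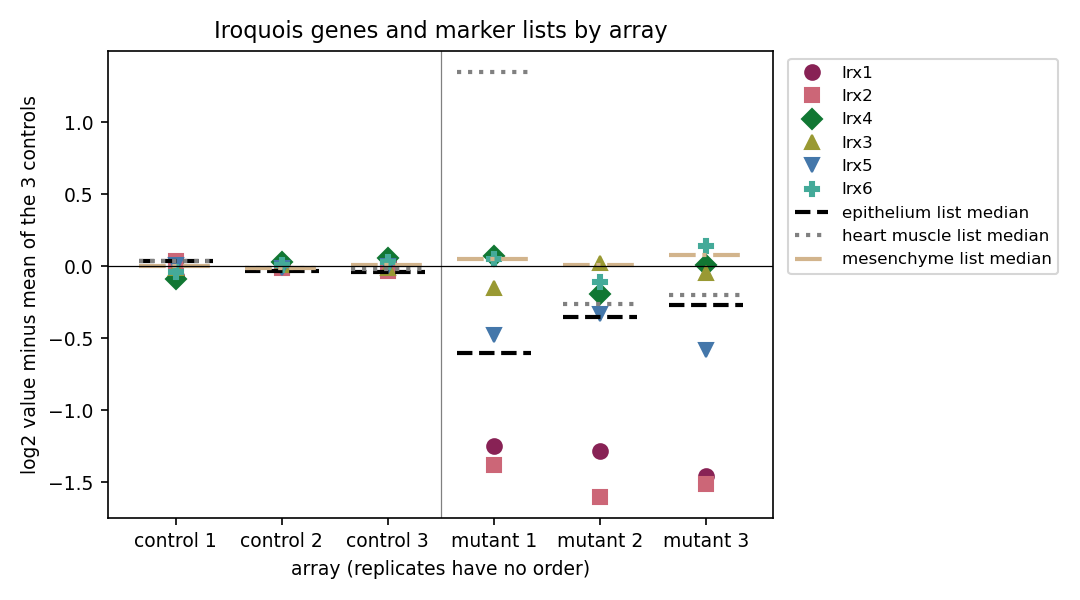
Log2 value minus the mean of the 3 controls (vertical axis) on each of the 6 arrays for the Iroquois genes (symbols) and the medians of marker lists (short lines). Irx1 and Irx2 lie from -1.25 to -1.60 in all 3 mutants, the epithelial median from -0.60 to -0.27, and the heart muscle median at 1.35 in mutant 1.

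Among transcription factors known from the lung epithelium, falls were common. Of 21 measured, 11 fell and 2 rose, while 8 missed the threshold (median -0.35). Among all genes 3.83% passed as lower and 3.84% as higher. The lists overlap: Sox9 is also counted as a cartilage gene, Grhl2 as an epithelial marker and Trp63 as a gene of stratified epithelium. The largest fall was that of Sox2, which sets proximal airway fate (8.80 ± 0.05 SD in controls and 6.72 ± 0.39 in mutants, limma adjusted p = 0.000297). Elf5, an ETS factor of distal epithelium, was at -1.37 ± 0.13 (SE), the endodermal forkhead gene Foxa2 at -0.94 ± 0.12, Nkx2-1, which specifies lung endoderm, at -0.88 ± 0.11 and Etv5, an effector of FGF signalling, at -0.87 ± 0.11. In size, the fall of Irx2 lay between those of Sox2 and Elf5, and the fall of Irx1 just under that of Elf5. Etv4, also an FGF effector, was the larger of the rises (1.58 ± 0.10, adjusted p = 0.000108). The count that fell was 7 without control 2, where Ehf, Elf3, Grhl2 and Ovol2 did not pass, and 8 to 12 with another array left out. It was 11 without mutant 1, of which 10 were among the 11 that fell with all arrays.

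The other genes of the TALE homeobox class held no fall that passed. Of 11 measured, 0 fell and 1 rose, while 10 missed the threshold (median 0.07). Among all genes 3.83% passed as lower and 3.84% as higher, and counts in so few genes cannot be set apart from these shares. An unadjusted limma p under 0.05 was reached by 5 of the 11, Mkx, Meis1, Meis2, Meis3 and Pknox1, each higher in mutants. The one that passed was Meis3, a cofactor of Hox proteins, which stood at 7.61, 7.55 and 7.66 across controls 1 to 3 and at 7.80, 8.03 and 7.94 across mutants 1 to 3 (0.31 ± 0.07, SE, limma adjusted p = 0.0388). Its call ended without control 1, control 2, control 3, mutant 2 or mutant 3 (adjusted p up to 0.156). Mkx, the Iroquois-like tendon factor and the closest relative of the family in this list, was at 0.43 ± 0.12 (adjusted p = 0.0788), and Meis1 and Meis2 were at 0.22 ± 0.06 and 0.20 ± 0.07 (adjusted p 0.0862 and 0.128).

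Genes known to be under Iroquois control in other tissues gave no call, but 3 of the 7 had a control mean above the array medians. With 3 arrays per group, a missing call does not show for any of the 7 that it did not change. For the dimmer genes, differences can be compressed as well. Of the 7 measured, 0 passed the threshold by limma in either direction, against 7.66% of all genes, and 2 had an unadjusted p under 0.05. These 2 were Gja1, a gap junction gene linked to Irx3 in the heart, at 0.28 ± 0.08 (SE, adjusted p = 0.065), and Kcnd2, a potassium channel gene repressed by Irx5 in the ventricle, at 0.26 ± 0.08 (adjusted p = 0.104). Gja1 stood at 10.45, 10.32 and 10.30 across controls 1 to 3 and at 10.59, 10.77 and 10.56 across mutants 1 to 3. The groups did not overlap, as for 25.9% of all genes. Cxcl12, a chemokine gene linked to Irx5 in cranial neural crest, was at 0.03 and Bmp10, a cardiac growth factor gene, at 0.06 (adjusted p 0.914 and 0.665).

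The genes whose profile over the 6 arrays was most like that of each changed Iroquois gene were found by the root mean square difference between values taken relative to the control mean. For Irx2 they were the keratin gene Krt7 (0.0686 log2 units), the T-box gene Tbx1 (0.106), the lysosomal protease gene Ctsh (0.119), the serine protease gene Habp2 (0.124) and the cadherin gene Cdh8 (0.127). For Irx1 the order was Atp8a1, a phospholipid flippase gene (0.075), Homer2, a scaffold gene (0.0773), the laminin chain gene Lamb3 (0.103), the myosin gene Myo5c (0.105) and Krt7 (0.12). Irx2 was at place 17 in the order of Irx1, and Irx1 at place 13 in the order of Irx2, among 18186 named genes, with 0.154 between both. The closest profile to Irx2, that of Krt7, stood at 9.65, 9.54 and 9.61 across controls 1 to 3 and at 8.19, 8.13 and 8.17 across mutants 1 to 3. For Irx5 they were Phyh (0.0362), an enzyme gene of peroxisomal fatty acid breakdown, the iron transporter gene Slc11a2 (0.0485), Nprl3 (0.0495), the serotonin receptor gene Htr2a (0.0525) and the actin-binding peptide gene Tmsb4x (0.0527). Of these 5, the calls of Phyh, Slc11a2 and Htr2a ended with single arrays left out, each of them without control 2 and without control 3 (adjusted p up to 0.0906, 0.0958 and 0.0762). With 6 arrays in 2 groups, such a likeness mostly restates a like difference between groups.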

How the data were processed

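RNA of 6 whole lungs was hybridised to 1-colour Affymetrix arrays. The authors deposited log2 values. The submitters' processing notes list the tools oligo, RMA (robust multi-array average) and limma, with no version or setting. Scanner files were not used here. RMA can compress the differences of dim features. There are no detection calls, and precision is limited by having 3 arrays per group, each from a different embryo as the series describes them. No batch is named in the labels.

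Of 35556 features, 21797 had 1 gene symbol in the platform annotation, 1613 had several and 12146 were unnamed here. Per gene, the feature with the highest mean was kept, which left 19946 genes. Each Iroquois gene had 1 feature. RefSeq tables of GRCm38.p6 gave gene order and start sequences, since the series names no build.

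Mutant and control arrays were compared with limma 3.58.1 in R 4.3.3 by a two-sided moderated test (lmFit, eBayes) on genotype alone, with Benjamini-Hochberg adjustment over all genes, a threshold of 0.05 and 7.96 moderated degrees of freedom. Gene pairs were compared with an exact two-sided permutation test over the 20 splits of 6 arrays. The comparison was tested on simulated data with known changes. Members, lists, tests and alternatives were chosen with earlier results of these data known. Named are the 6 genes, the 3 targeted genes, the 5 nearest neighbours on each side of a cluster, list members past the threshold and the 5 most similar profiles per changed Iroquois gene, leaving out unnamed models and small RNAs. Any other gene is given as values only. The alternatives were renormalization, centring, a filter on dim genes, other feature choices, moderated variance with trend, array weights, the replicate number as a block, a heart muscle covariate and each array left out. The counts of lower list members with single arrays left out were added after seeing the data.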

Additional observations from a re-analysis of the deposited data

How the results depend on the processing

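Irx1, Irx2 and Irx5 were lower and past the threshold under each of the 15 alternatives run, with differences from -1.37 to -1.26, from -1.56 to -1.45 and from -0.53 to -0.40 and adjusted p up to 0.000934, 0.000452 and 0.0419. Some alternatives leave these differences unchanged by design and can move only the adjusted p. They are the other feature choices (each Iroquois gene has 1 feature), the dim filter, the variance trend and the replicate block. Irx3 stayed unpassed, from -0.10 to -0.02. Irx4 and Irx6 were also unpassed throughout and near 0, and each turned sign with 1 array left out, Irx4 to 0.04 without mutant 2 and Irx6 to -0.03 without mutant 3. With single arrays left out their ranges were -0.09 to 0.04 and -0.03 to 0.10. Irx6 fell out of the fit when the dimmest genes were left out and has no value there. The pair differences kept their direction with each array left out.

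The count of genes called, 1528, ranged from 774 to 1745 with 1 array left out, and was 876, 793 and 774 without control 1, control 2 and control 3. It was 549 when a fold of at least 1.5 was also required. With the replicate number as a block it was 1137, and the difference of Irx5 was -0.46 (adjusted p = 0.0197), while those of Irx1 and Irx2 stayed at -1.33 and -1.50. The labels do not say that the numbers pair the arrays. Deviations of same-numbered arrays correlated at -0.07, 0.05 and 0.15, and those of differently numbered arrays at -0.15 to 0.08. With 3 arrays per group these values cannot decide whether arrays were paired. No call on an Iroquois gene changed with the block. The files hold no detection calls, so how far Irx4 and Irx6 stood above background was not measured. With single arrays left out, the count of lower epithelial markers ranged from 3 to 8 and that of lower lung epithelial transcription factors from 7 to 12.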
